A study of Mus musculus with 12 samples.

Results

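The genes described here make cholesterol or govern and use it in the mouse liver: the enzymes of the mevalonate and sterol steps, SREBP2 (encoded by Srebf2) with the proteins that escort it or hold it back, and carriers and transporters of the finished cholesterol. They were taken from the deposited count table as the rows whose Entrez identifiers belong to 28 listed mouse symbols, of 26301 rows in all. Of these 28 members, 27 were among the 13882 genes kept for testing, and Hmgcs1 was not. RNA was measured in 12 libraries from adult mice of an end-of-life study. The 4 control libraries came from non-tumor livers of age-matched wild-type mice. The 4 DKO libraries came from spontaneous liver tumors of Alb-Cre E2f7 E2f8 knockout mice, and the 4 TKO libraries from spontaneous liver tumors of Alb-Cre Rb1 E2f7 E2f8 knockout mice. The albumin promoter drives Cre in hepatocytes, so other cells of a tumor keep the genes, and since every knockout library is a tumor and every control is not, genotype and tumor state cannot be told apart against the controls. The study reports a longer tumor latency in the double than in the triple knockout, so mouse age may differ between DKO and TKO too. The question was how these genes differed between each tumor genotype and control liver, and between tumors with and without Rb1.

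Cholesterol is built from acetyl units through mevalonate and isoprenoids to squalene, which is closed into a sterol ring and trimmed. When membranes of the endoplasmic reticulum are poor in sterol, SCAP escorts SREBP2 to the Golgi, where it is cut and released to switch on most genes of the pathway, and when sterol is plentiful, INSIG proteins keep SCAP and SREBP2 in place. The liver is the main organ that both makes cholesterol and exports it into bile, and its synthesis genes are known for moving together with feeding, fasting and diet.

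Total counts were between 9165812 and 16424973 per library. Hepatocyte markers were present in every library, with 10 of 10 tested and none at 0, and a summed level of 81217 to 136956 CPM (read counts put on a common scale by total count and edgeR's TMM factors) in controls, 124387 to 310771 CPM in DKO and 50094 to 233339 CPM in TKO. As a check of the labels, Rb1 was at 6.52 to 10.7 CPM in controls, 7.99 to 11.3 CPM in DKO and 3.21 to 5.47 CPM in TKO, so all TKO values lay below all others. E2f7 (0.542 to 1.11 CPM in controls, 0.236 to 1.84 CPM in DKO, 0.69 to 0.895 CPM in TKO) and E2f8 (4.52 to 8.97, 7.59 to 45.6 and 12.3 to 52.2 CPM) were not lower in the tumors, and a count over a whole gene also holds exons that a deletion leaves, so neither checks the labels.

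The promoters are shown first because most of these genes share 1 short sequence that the choice of members did not use. RefSeq windows of 300 bases (250 before to 50 after a transcript start, GRCm38.p6) were at hand for 23 of the 28 members, with none for Fdps, Fdft1, Sqle, Stard4 and Soat2. A CCAAT box (CCAAT on either strand), the usual site of NF-Y, which is known to act beside SREBP2, was in a window of 21 of the 23, against 41.1% of 27025 genes and 37.4% of 32851 windows. The core of the sterol regulatory element, spelled TCACNCCAC on either strand, was in the window of Hmgcs1 alone, against 1.24% of windows. In Hmgcs1 the matches to the motifs do not overlap. A match is a description of letters only, and elements spelled otherwise were not searched. The 150 bases before the start are printed for Hmgcs1 (plus strand, chr13:119690201-119690350), whose window holds both motifs, for Idi1 (plus strand, chr13:8885456-8885605), Mvd (minus strand, chr8:122443423-122443572), Lss (plus strand, chr10:76531455-76531604) and Cyp51 (minus strand, chr5:4104698-4104847), synthesis enzymes with wide swings between libraries, and for Tm7sf2 (minus strand, chr19:6067851-6068000), the member with the clearest difference between groups. Capitals mark CCAAT or its reverse complement ATTGG and, in Hmgcs1, also the sterol element.
Hmgcs1: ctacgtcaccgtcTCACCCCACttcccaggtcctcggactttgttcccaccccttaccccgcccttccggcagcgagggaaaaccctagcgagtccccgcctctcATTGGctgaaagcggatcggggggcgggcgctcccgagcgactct
Idi1: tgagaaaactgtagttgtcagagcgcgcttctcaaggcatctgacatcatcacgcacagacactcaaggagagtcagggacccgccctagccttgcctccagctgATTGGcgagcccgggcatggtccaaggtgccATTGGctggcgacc
Mvd: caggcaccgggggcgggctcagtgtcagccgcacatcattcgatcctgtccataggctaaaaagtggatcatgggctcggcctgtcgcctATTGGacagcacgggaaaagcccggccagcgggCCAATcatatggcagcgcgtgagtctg
Lss: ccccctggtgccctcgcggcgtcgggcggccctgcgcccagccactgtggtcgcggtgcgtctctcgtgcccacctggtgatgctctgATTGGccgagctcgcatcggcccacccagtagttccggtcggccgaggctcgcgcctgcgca
Cyp51: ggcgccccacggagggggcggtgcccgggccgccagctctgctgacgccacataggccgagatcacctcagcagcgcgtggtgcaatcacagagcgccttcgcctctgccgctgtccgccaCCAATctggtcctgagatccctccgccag
Tm7sf2: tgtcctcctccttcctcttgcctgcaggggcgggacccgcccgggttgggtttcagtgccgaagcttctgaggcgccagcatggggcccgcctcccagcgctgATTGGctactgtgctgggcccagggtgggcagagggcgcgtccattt

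Abcg5 and Abcg8, the partners that form the canalicular sterol exporter, lie head to head. The 109 bases between their starts (plus strand, chr17:84683012-84683120) are given because the pair is followed together below, and they hold neither motif.
Abcg5 and Abcg8: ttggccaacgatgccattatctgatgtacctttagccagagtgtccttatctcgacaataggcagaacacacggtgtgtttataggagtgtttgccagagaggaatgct

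By edgeR no tested member passed the adjusted threshold between groups (DESeq2 called Tm7sf2 in 2 comparisons and voom in 1, given below), and the clearest feature of these genes was that single libraries of every group ran high or low across most of the synthesis genes at once. Control 1, DKO 4 and TKO 1 were the high libraries, and control 2, DKO 3 and TKO 3 the low ones. Over all 12 libraries, the highest value of a member was a median of 3.96 times its lowest, from 1.81 for Ebp to 24.5 for Sqle. The same median was 2 over the 9361 tested genes at or above the lowest mean level of a member. Within groups, the SD of log2 CPM had a median of 0.607 over the members and 0.272 over those genes, and 24 of 27 members lay above the latter. In whole tissue, fewer cells of a type and less RNA per cell cannot be told apart.

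**Figure D1:**
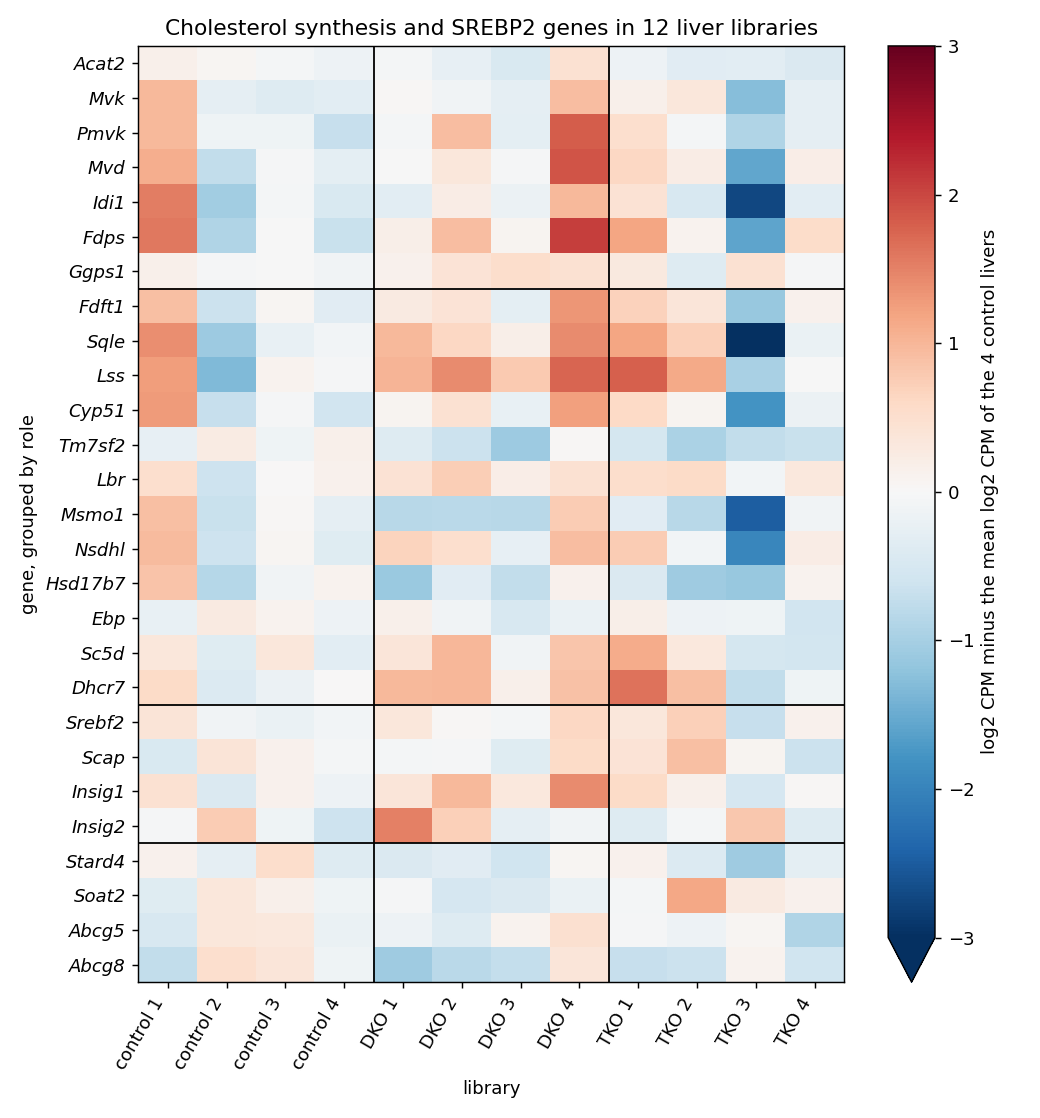
Each row is a tested gene and each column a library, and color gives log2 CPM minus the mean log2 CPM of the 4 control livers (the scale stops at 3 in either direction, and Sqle in TKO 3 lies past it). Black lines separate the 3 groups and the 4 roles. Control 1, DKO 4 and TKO 1 are red for most synthesis genes, and TKO 3 is blue for most of them.

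Among the controls, control 1 was highest for 19 of 27 members (70.4%, against 26.6% of all tested genes) and control 2 lowest for 14 (51.9%, against 29.5%). Both held together for 14 members, against 13.5% of all genes: Mvd, Idi1, Fdps, Fdft1, Sqle, Lss, Cyp51, Lbr, Msmo1, Nsdhl, Hsd17b7, Sc5d, Dhcr7 and Insig1. In the DKO tumors, DKO 4 was highest for 20 members (74.1%, against 30.1%) and DKO 3 lowest for 21 (77.8%, against 25.7%). In the TKO tumors, TKO 1 was highest for 16 (59.3%, against 22.2%) and TKO 3 lowest for 17 (63%, against 26.6%). TKO 3 was the lowest of all 12 libraries for 15 members (55.6%, against 7.98% of all genes). Members are not replicates, and these shares are descriptions of single libraries.

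The order was turned around for 6 members: Tm7sf2, Ebp, Scap, Soat2, Abcg5 and Abcg8 were lowest in control 1 and highest in control 2 (22.2%, against 14.1% of all genes). All 4 of Soat2, Abcg5, Abcg8 and Scap act outside the chain of synthesis steps, and Tm7sf2 and Ebp are enzymes within it. The remaining members outside the chain did not show this order: Srebf2 and Insig1 were highest in control 1, Stard4 in control 3, and Insig2 was highest in control 2 but lowest in control 4. The median member lay 0.50 above its group's mean log2 CPM in control 1, 0.55 in DKO 4 and 0.52 in TKO 1, and its difference from the group mean was -0.37 in control 2, -0.42 in DKO 3 and -0.66 in TKO 3, while the median of all genes stayed between -0.02 and 0.01 in each library.

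**Figure D2:**
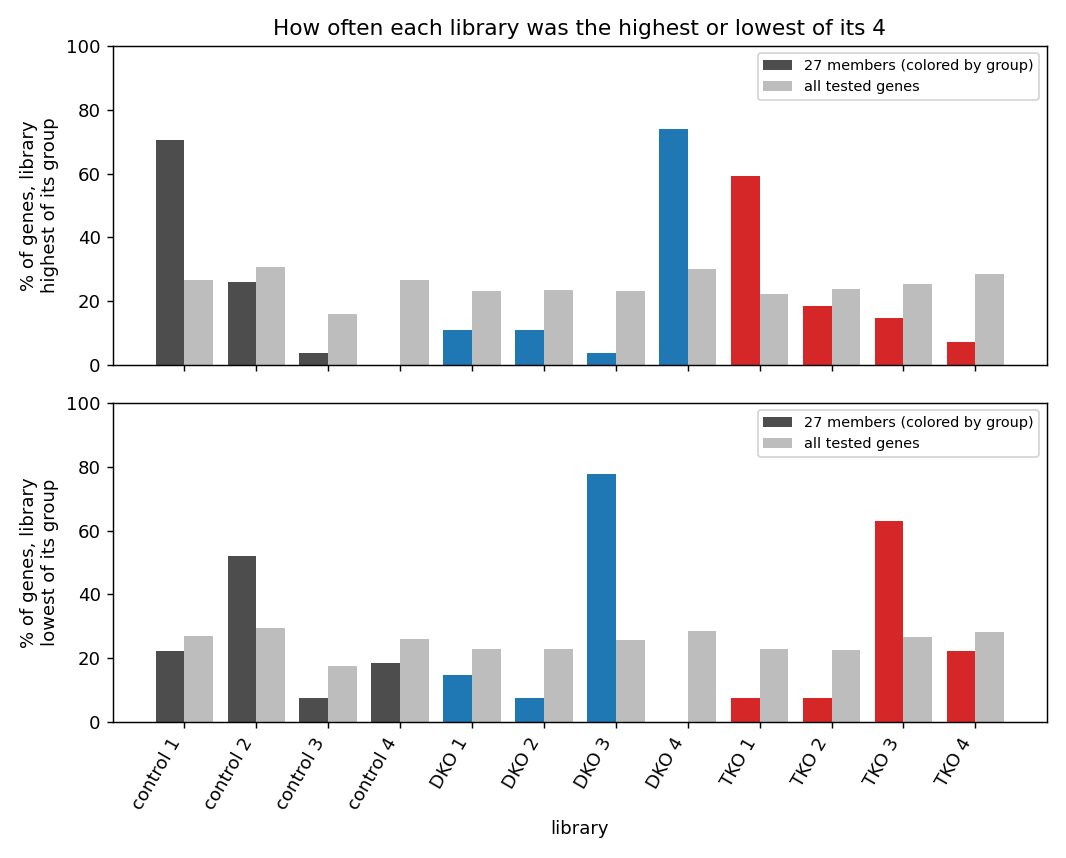
The upper panel gives, for each library on the x axis, the percentage of genes for which it was the highest of the 4 libraries of its group, and the lower panel the percentage for which it was the lowest. Colored bars are the 27 tested members and grey bars all 13882 tested genes. DKO 4 reaches 74.1% in the upper panel and DKO 3 reaches 77.8% in the lower.

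Markers of other cells and of liver zones also differed between these libraries. The 8 Kupffer cell and macrophage markers (8 of 8 tested, none at 0) summed to 625 CPM in control 1 and 232 CPM in control 2 (range 232 to 625 in controls), to 128 CPM in DKO 4 and 524 CPM in DKO 3 (range 128 to 524), and to 221 CPM in TKO 1 and 672 CPM in TKO 3 (range 215 to 672). So in the high library of the synthesis genes this sum was high among controls and low in both tumor groups. Single markers did not all follow the sum: of the DKO tumors, Cd68 was highest in DKO 4, at 25.2 CPM, against 23.8 CPM in DKO 3. The 8 pericentral hepatocyte markers (8 of 8 tested, none at 0) summed to 8795 to 14342 CPM in controls, 1062 to 27569 CPM in DKO and 1666 to 36151 CPM in TKO, with DKO 4 and TKO 4 at the top, and the 8 periportal markers (none at 0) to 2767 to 4839, 224 to 3783 and 510 to 3492 CPM, with the same 2 libraries lowest. The 8 proliferation markers (none at 0) ran from 9.22 to 22.3 CPM in controls, 27.2 to 118 CPM in DKO and 14.8 to 71.3 CPM in TKO, and were lowest in DKO 4 and in TKO 3 within their groups. The endothelial markers summed to 140 to 213, 158 to 232 and 180 to 340 CPM (7 of 7 tested), the stellate cell and fibroblast markers to 247 to 420, 165 to 549 and 216 to 407 CPM (7 of 7), the biliary markers to 28.6 to 49.4, 24.4 to 108 and 31.2 to 54.9 CPM (4 of 5) and the lymphocyte markers to 11.1 to 35.6, 9.08 to 30.4 and 12.8 to 21.4 CPM (7 of 8). The endothelial sum was highest in TKO 3, as were Stab2, Clec4g, Kdr and Fcgr2b. Pecam1 and Cdh5 were highest in DKO 4 (69.5 and 61.4 CPM, against 33.2 and 42.5 CPM in TKO 3), and Lyve1 in DKO 3. The part of any of these markers in the swings was not tested.

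**Figure D3:**
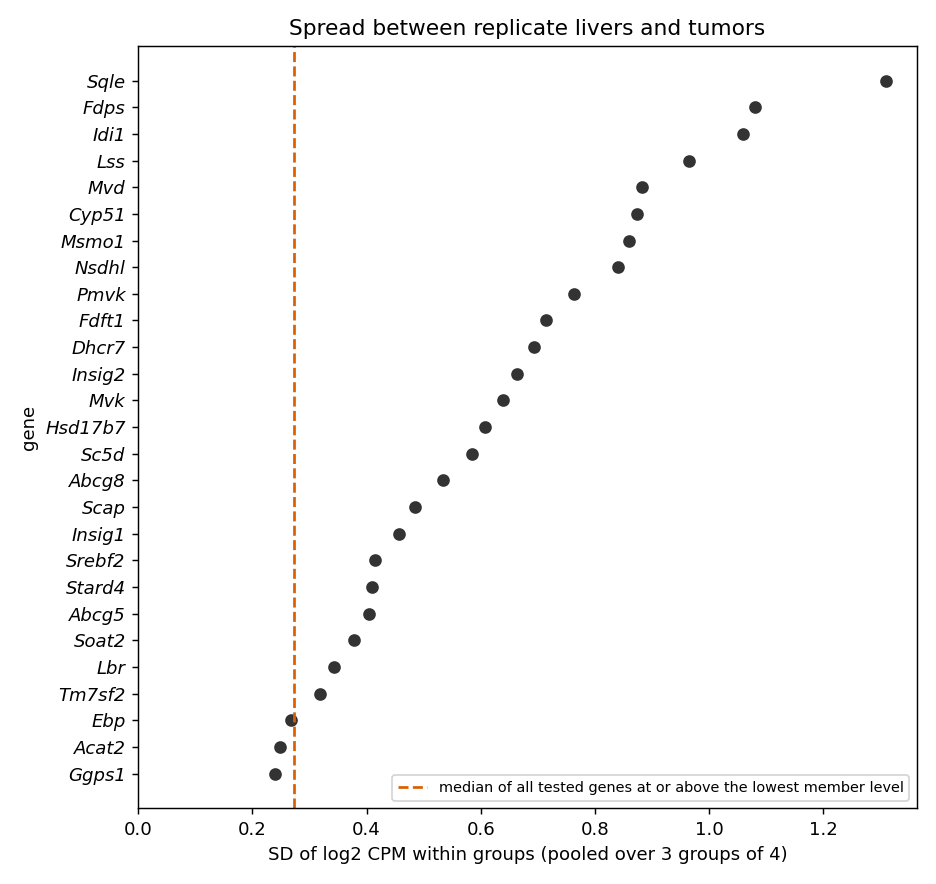
For each tested member on the y axis, the x axis gives the SD of log2 CPM within groups, pooled over 3 groups of 4 libraries. The dashed line is the median of 9361 tested genes, 0.272, and 24 of 27 members lie to its right, Sqle farthest at 1.31.

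Hmgcs1, the cytosolic synthase that makes HMG-CoA at the head of the pathway, had 0 counts in all 12 libraries, which allows up to 3 counts a library, or 0.177 to 0.369 CPM. This limit covers counting error only. No gene of that symbol was in the annotation of the mm9 build used here (GENCODE vM1), and the exact 300 bases of its promoter window occurred 2 times in mm9, both on contigs not placed on a chromosome, whereas each of the other 29 member windows occurred 1 time. How the authors treated reads that map to several places is not given in the sources used here, and its part in the 0 was not tested.

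Of the other mevalonate enzymes, Acat2, which joins acetyl units, was at 195 ± 18.9 CPM in controls, 190 ± 54.7 CPM in DKO and 157 ± 12.8 CPM in TKO (SD, n = 4 here and in all values written this way). The kinases and the decarboxylase that turn mevalonate into isopentenyl diphosphate were lower expressed. Mvk was at 25.6 ± 13.9, 27.4 ± 11.5 and 21.3 ± 8.82 CPM in controls, DKO and TKO, Pmvk at 29.4 ± 15.8, 48.1 ± 33.2 and 25.1 ± 9.84 CPM, and Mvd at 19.3 ± 11.6, 29.6 ± 22.5 and 17.9 ± 8.62 CPM. Mvd reached 63.1 CPM in DKO 4 and 5.83 CPM in TKO 3.

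Idi1 (chr13:8884852-8891641 in mm9), the isomerase that interconverts the isoprenoid building blocks, was at 406, 68.7, 136 and 103 CPM in control 1 to control 4, at 113, 164, 124 and 274 CPM in DKO 1 to DKO 4 and at 190, 101, 21.3 and 112 CPM in TKO 1 to TKO 4. Fdps (chr3:88897514-88905881 in mm9), which makes farnesyl diphosphate, was at 312, 55.4, 102 and 64.8 CPM in the controls, 116, 197, 109 and 433 CPM in DKO and 233, 112, 34.4 and 152 CPM in TKO. For both genes the 3 groups overlapped, and control 1, DKO 4 and TKO 1 led their groups. Ggps1, which makes the longer isoprenoid used to anchor proteins, did not follow them. It was low and even, at 5.2 ± 0.41, 6.79 ± 0.787 and 5.63 ± 1.39 CPM, with an exon that overlaps Arid4b on the other strand.

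Sqle (chr15:59146632-59162747 in mm9), squalene epoxidase, which adds oxygen in a rate-controlling step, had the widest range of all members. It was at 359, 64.5, 118 and 129 CPM in the controls, at 270, 211, 156 and 366 CPM in DKO and at 313, 224, 15 and 119 CPM in TKO. The groups overlapped widely, and the lowest and third-highest libraries were both TKO tumors. Its log2 fold change was 0.58 (standard error 0.701) in DKO and -0.00 (standard error 0.699) in TKO against controls, with adjusted p of 0.651 and 1 by edgeR.

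Lss (chr10:75994333-76019883 in mm9), which closes the sterol ring, was at 170, 28.2, 77.1 and 69.3 CPM in the controls, at 144, 190, 122 and 240 CPM in DKO and at 245, 156, 36.4 and 70.1 CPM in TKO. In DKO its log2 fold change of 1.01 (standard error 0.575) was the highest of the members, with only control 1 among the DKO values, and the adjusted p was 0.305 by edgeR. Exons of Lss overlap 4930483K19Rik on the other strand. Fdft1, squalene synthase, was at 159 ± 80.6, 213 ± 106 and 162 ± 71.1 CPM in controls, DKO and TKO, and has an exon shared in position with Ctsb on the other strand. Cyp51, which removes the first methyl group from lanosterol, was at 342 ± 249, 410 ± 194 and 272 ± 148 CPM.

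Of the enzymes that finish the molecule, Msmo1, the methylsterol oxidase, was at 480 ± 241 CPM in controls, 374 ± 250 CPM in DKO and 271 ± 145 CPM in TKO. Nsdhl and Hsd17b7, which work with it in removing the remaining methyl groups, were at 163 ± 85.8, 214 ± 66.1 and 151 ± 89.2 CPM and at 122 ± 58.3, 82.5 ± 30.7 and 77 ± 32.4 CPM. Sc5d, the desaturase, was at 473 ± 127, 689 ± 221 and 548 ± 317 CPM, and Dhcr7, which makes cholesterol in the last step of its branch, at 142 ± 43.6, 237 ± 57.3 and 222 ± 154 CPM. Ebp, the sterol isomerase, was the most even, at 240 ± 38.1, 216 ± 39.2 and 215 ± 44.1 CPM. On a scale per kilobase of exon, Sc5d was the most abundant member in controls, at 203 CPM per kilobase, and Ggps1 the least abundant of those tested, at 2.18.

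Tm7sf2 and Lbr are both sterol reductases for the same double bond, and Lbr also holds chromatin at the nuclear envelope. Tm7sf2 was at 92.9, 131, 101 and 123 CPM in the controls, at 85.4, 70.9, 52.1 and 113 CPM in DKO and at 76.8, 57.3, 66.7 and 70.3 CPM in TKO. All TKO values lay below all control values, while 1 DKO tumor, DKO 4, lay within the control range. The log2 fold change was -0.72 (standard error 0.213) in TKO against controls, with an adjusted p of 0.151 by edgeR and 0.0493 by DESeq2, and an exact two-sided permutation test of this gene alone gave p = 0.0286, the smallest that 4 against 4 allow. In DKO it was -0.48 (standard error 0.212, adjusted p = 0.193 by edgeR). Tm7sf2 (minus strand, chr19:6062821-6068373 in mm9) shares exon positions with 1110014N23Rik on the same strand, so its count is uncertain. Lbr was at 20.7 ± 6.27 CPM in controls, 27.6 ± 4.34 CPM in DKO and 25.5 ± 4.83 CPM in TKO, with log2 fold changes of 0.41 and 0.30 (adjusted p = 0.272 and 0.534 by edgeR).

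Srebf2 (chr15:81977696-82035806 in mm9), the regulator itself, was at 101, 72, 67.1 and 72.3 CPM in the controls, at 97.6, 79, 74.5 and 119 CPM in DKO and at 97.1, 126, 47.8 and 84.4 CPM in TKO. Its highest value was 2.64 times its lowest, the groups overlapped, and its SD of log2 CPM within groups was 0.414, below the members' median of 0.607. TKO 3 was the lowest library and DKO 4 the second highest, as for many synthesis enzymes, but TKO 2 was highest. The log2 fold change was 0.24 (standard error 0.262) in DKO and 0.19 (standard error 0.262) in TKO, with adjusted p of 0.605 and 0.777 by edgeR. Scap, the escort of SREBP2, was at 138 ± 33 CPM in controls, 142 ± 41.5 CPM in DKO and 165 ± 70.1 CPM in TKO, and its exons overlap 5830462I19Rik on the other strand.

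Insig1 (chr5:28397952-28405201 in mm9), both a brake on SREBP2 and known as its target, was at 390, 211, 311 and 254 CPM in the controls, at 364, 561, 355 and 753 CPM in DKO and at 426, 317, 199 and 290 CPM in TKO. Of the controls only control 1 lay within the DKO range, as did TKO 1 of the TKO tumors. In DKO the log2 fold change was 0.80 (standard error 0.304, adjusted p = 0.135 by edgeR), and between the tumor genotypes it was -0.72 (standard error 0.303, adjusted p = 0.554 by edgeR). Insig2 (chr1:123200930-123229166 in mm9), the other INSIG, of which the liver makes a transcript that insulin is known to lower, was high in other libraries. It was at 138, 239, 129 and 92.2 CPM in the controls, at 404, 230, 117 and 130 CPM in DKO and at 108, 136, 247 and 108 CPM in TKO, with control 2, DKO 1 and TKO 3 highest in their groups.

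**Figure D4:**
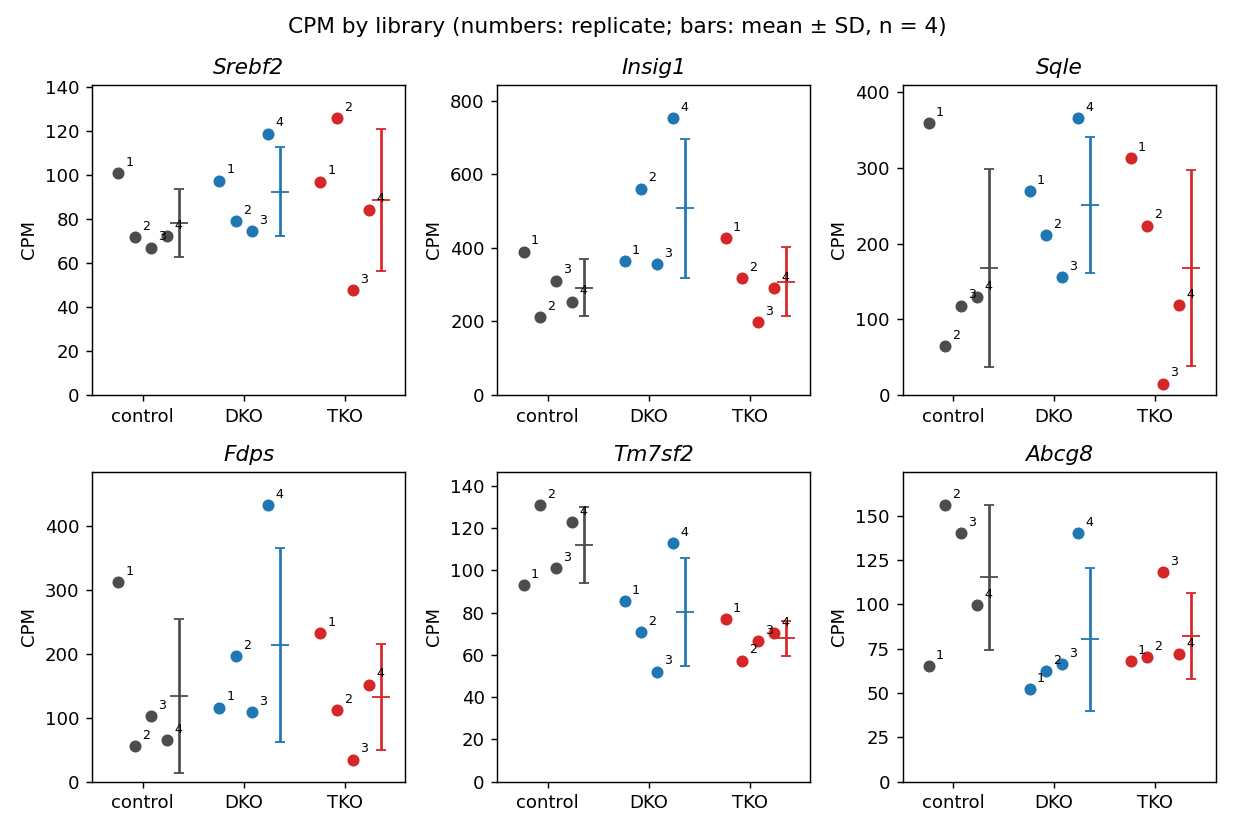
CPM on the y axis for 6 members in control livers, DKO tumors and TKO tumors on the x axis, where each point is a library with its replicate number and the bar beside each group is the mean ± SD (n = 4). The groups overlap in every panel except for Tm7sf2 between TKO and control.

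The genes for finished cholesterol had within-group SDs of log2 CPM between 0.378 and 0.533. Stard4, which carries cholesterol between membranes, was at 215 ± 65 CPM in controls, 168 ± 34.5 CPM in DKO and 163 ± 52.4 CPM in TKO. Soat2, which esterifies cholesterol for storage and secretion, was at 25.7 ± 5.41, 20.8 ± 3.16 and 34.7 ± 14.7 CPM, and TKO 2 alone reached 56.5 CPM. Between the tumor genotypes its log2 fold change was 0.74 (standard error 0.253, adjusted p = 0.464 by edgeR).

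Abcg5 (chr17:85057574-85082351 in mm9) was at 84.5, 150, 147 and 103 CPM in the controls, at 106, 90.4, 126 and 165 CPM in DKO and at 115, 106, 122 and 62.7 CPM in TKO. Abcg8 (chr17:85075642-85099673 in mm9) was at 65.3, 156, 140 and 99.6 CPM in the controls, at 52.3, 62.1, 66.3 and 140 CPM in DKO and at 68.1, 70.4, 118 and 71.9 CPM in TKO. The groups overlapped for both. Abcg8 had log2 fold changes of -0.52 (standard error 0.342) in DKO and -0.49 (standard error 0.342) in TKO, with adjusted p of 0.376 and 0.512 by edgeR, and Abcg5 of 0.01 and -0.25 (adjusted p = 0.988 and 0.675). The ratio of Abcg5 to Abcg8 CPM was 0.959 to 1.29 in the controls, 2.03, 1.46, 1.9 and 1.18 in DKO and 1.69, 1.5, 1.04 and 0.871 in TKO. The annotated exons of these neighbors overlap on opposite strands in mm9, and the strand setting of the counting is not given in the sources used here, so reads of the pair may be split between them.

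In DKO tumors against controls, 18 of 27 members had a positive and 9 a negative log2 fold change, with a median of 0.26, against 0.02 over all tested genes. By edgeR, 0 of 27 were called (background 2.42%), with 2, Tm7sf2 and Insig1, at an unadjusted p under 0.05 (background 24%). DESeq2 called 0 (background 10.4%) and voom with quality weights called 0 (background 13%), and 0 had no overlap between the groups (background 16.2%). The median was -0.07 without DKO 4 and 0.55 without control 1, so its sign rested on DKO 4. By role, the median was 0.38 over 7 mevalonate enzymes, 0.40 over 12 squalene and sterol enzymes, 0.40 over the 4 genes of SREBP2 and its regulators and -0.33 over the 4 genes of transfer, esterification and export.

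In TKO tumors against controls, 11 members had a positive and 16 a negative log2 fold change, with a median of -0.11 (all genes 0.02). By edgeR, 0 of 27 were called (background 0.0864%), with 1, Tm7sf2, at an unadjusted p under 0.05 (background 16.3%). DESeq2 called 1, Tm7sf2 (background 3.49%), voom called 0 (background 0.699%), and Tm7sf2 alone had no overlap (background 7.67%). With scaling to total counts only, which moved the median of all genes to 0.17, 15 members were positive and their median was 0.02. The median was 0.21 without control 1, -0.02 without TKO 3, -0.36 without TKO 1, -0.26 without control 2 and -0.23 without control 4. Both tumor genotypes were compared with the same control libraries, so their values against controls are not independent. The role medians were -0.23 for the mevalonate enzymes, -0.06 for the squalene and sterol enzymes, 0.13 for SREBP2 and its regulators and -0.33 for transfer, esterification and export.

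**Figure D5:**
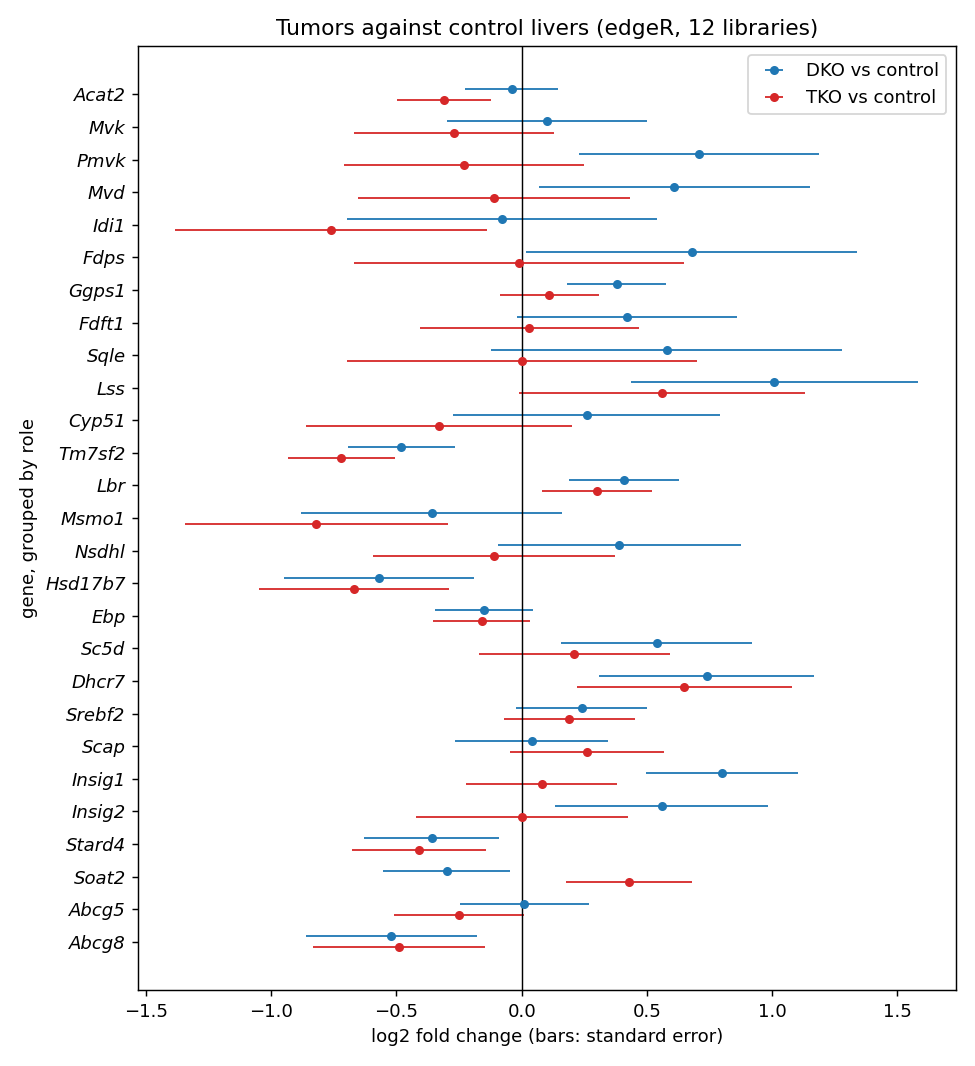
Log2 fold change against the 4 control livers on the x axis for each tested member on the y axis, with DKO in blue, TKO in red and bars for the standard error from edgeR. Estimates for Lss, Dhcr7 and Insig1 in DKO lie farthest to the right, at 1.01, 0.74 and 0.80, and none passed the adjusted threshold.

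Between the tumor genotypes, 24 of 27 members had a lower estimate in TKO than in DKO, with a median log2 fold change of -0.33 (all genes 0.01). All 7 mevalonate enzymes (median -0.67) and all 12 squalene and sterol enzymes (median -0.36) were on that side, with Pmvk lowest at -0.93. Of all tested genes, 51.2% had a positive log2 fold change. By edgeR, 0 were called (background 0%), with 2, Insig1 and Soat2, at an unadjusted p under 0.05 (background 9%). DESeq2 called 0 (background 0.398%), voom called 0 (background 0%), and 0 had no overlap (background 4.87%). With scaling to total counts only, 7 members were positive and their median was -0.27 (all genes 0.11). With TMM factors, the median was -0.07 without DKO 4, -0.18 without TKO 3 and -0.50 without DKO 3, the libraries in which most members ran high or low together. With both genotypes pooled against controls, the median was 0.15 (all genes 0.02), with 16 members positive and 11 negative. By edgeR 0 were called (background 2.48%), with 1, Tm7sf2, at an unadjusted p under 0.05 (background 23%). For Tm7sf2 the log2 fold change was -0.60 (standard error 0.18), with an adjusted p of 0.0816 by edgeR, and it was the only member called by DESeq2 (background 9.49%) or voom (background 13.1%). In this comparison 0 members had no overlap (background 3.66%). The pooled median ranged from 0.03 without DKO 4 to 0.37 without control 1, and was 0.04 without control 2 or control 4, 0.10 without DKO 1 or TKO 1.

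The standard errors set what could be seen. Over the members their median was 0.382 in DKO against controls, on the log2 scale, against 0.24 over all tested genes, so a member had to move further than a typical gene to be called. Control 2 and TKO 3 were also left out together, while DKO 3, lowest of its group for 21 members, was kept. The member medians were then 0.20 in DKO, -0.03 in TKO and -0.18 between the tumor genotypes, again with 0 called by edgeR.

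Around these members, 29 further genes of sterol sensing, isoprenoid branches and cholesterol handling were followed, all of them tested. By edgeR 0 were called in any comparison. In DKO against controls 17 were positive and 12 negative (median 0.07), with 9 at an unadjusted p under 0.05 (background 24%). DESeq2 called 4 (Dhdds, Abca1, Abcg1 and Osbp, background 10.4%) and voom called 5 (these and Nr1h3, background 13%), while 7 had no overlap with controls (background 16.2%). In TKO against controls 21 were positive and 8 negative (median 0.14), 3 had an unadjusted p under 0.05 (background 16.3%), and DESeq2 and voom called 0 (background 3.49% and 0.699%). Between tumor genotypes 13 were positive and 16 negative (median -0.01), 5 had an unadjusted p under 0.05 (background 9%), DESeq2 and voom called 0 (background 0.398% and 0%), and Osbp alone had no overlap (background 4.87%). With genotypes pooled, 7 had an unadjusted p under 0.05 (background 23%), DESeq2 called Abca1 and Abcg1 (background 9.49%), and voom called these and Dhdds (background 13.1%).

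The highest pooled estimates were those of Rnf145, Abcg1 and Erlin1. Rnf145, a sterol-responsive ubiquitin ligase that acts on SCAP, was at 26.8 to 60.8 CPM in controls, 50.8 to 206 CPM in DKO and 41.9 to 173 CPM in TKO (log2 fold change 1.16, adjusted p = 0.144 by edgeR). Abcg1, a cholesterol exporter and LXR target, was at 8.48 to 18.9 CPM in controls and 22.2 to 41.8 CPM in DKO, without overlap, and at 11.6 to 23.4 CPM in TKO (0.85, adjusted p = 0.104 by edgeR). Erlin1, part of the complex that degrades sterol-regulated proteins, was at 48.9 to 91.5, 92 to 153 and 68.7 to 132 CPM (0.62, adjusted p = 0.154 by edgeR). Among the lowest were Lcat, which esterifies cholesterol in plasma, at 314 to 390, 212 to 318 and 220 to 366 CPM (-0.40), and Nr1h3, the sterol receptor LXR alpha, at 60.2 to 76.8, 45.1 to 54.4 and 44.6 to 67.1 CPM (-0.31).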

How the data were processed

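Poly(A) RNA from snap-frozen livers and tumors was sequenced as 40-base SOLiD reads. The submitters' notes name BWA, mm9 and FeatureCounts, and the table the authors deposited holds unnormalized read counts of 26301 Entrez genes. Tool versions, strandedness and how reads with several matches were handled are not given in the sources used here. The study used 4 livers per condition, and groups and replicate numbers came from the sample labels. Symbols were matched for 24191 identifiers, which held 99.4% of counts, and coordinates were taken from GENCODE vM1 by symbol (Msmo1 as Sc4mol).

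Total counts of 9165812 to 16424973 set the counting error of low genes. The 13882 genes kept by edgeR's filter were fitted over all 12 libraries with edgeR 4.0.16 (R 4.3.3), using TMM factors and its quasi-likelihood test, and p-values were adjusted over all of them (Benjamini-Hochberg, threshold 0.05). Differences on a log2 CPM scale used a prior count of 2. DESeq2 1.42.0, limma 3.58.1 voom with quality weights, other scalings and filters, a block for replicate number, a threshold of 0.1 and fits without each library were alternatives. The script was tested on simulated data. No pair of libraries was identical, and all columns were mapped.

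The members and the lists of other genes and markers were chosen with earlier results of these data known. All 28 members are named with their levels. Values in every library are given for members called or without overlap in a comparison, and for Srebf2, Insig1, Hmgcs1, Sqle, Abcg5 and Abcg8. Idi1, Fdps, Lss and Insig2 were added after their values were seen. Of the other pathway genes, the 3 highest and 3 lowest pooled estimates were to be given, and 1 of them is not reported here.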

Additional observations from a re-analysis of the deposited data

Results flagged for a closer look

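Of 81 groups of 4 libraries looked at for a library apart from the other 3 (on log2 CPM), 4 had one, and chance flags about 1 in 20. Mvk was at 46.4 CPM in control 1, against 17.8 to 19.4 CPM in the other controls. Msmo1 was at 749 CPM in DKO 4, against 246 to 253 CPM in the other DKO tumors. Dhcr7 was at 153 CPM in DKO 3, against 252 to 276 CPM in the other DKO tumors. Abcg8 was at 118 CPM in TKO 3, against 68.1 to 71.9 CPM in the other TKO tumors. The first 3 lie in libraries that were high or low across most synthesis genes, and Abcg8 in TKO 3 lies on the side opposite to most of them.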

How the results depend on the processing

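The number of members called stayed 0 with every library left out in turn, and it was 1, Tm7sf2, in TKO against controls with DESeq2, and 1, again Tm7sf2, with both genotypes pooled under DESeq2, under voom with quality weights and at an adjusted p under 0.1. Over the alternatives the adjusted p of Tm7sf2 ran from 0.0493 to 0.346 in TKO and from 0.0304 to 0.234 pooled. Leaving out 1 library at a time, the member median ran from -0.07 to 0.55 in DKO, -0.36 to 0.21 in TKO, -0.50 to -0.07 between tumor genotypes and 0.03 to 0.37 pooled. The SD between library medians was 0.427, larger than each of the 4 member medians. It is a spread of single libraries, while the member medians compare group means, so it does not give the error of those medians. The sign of the median turned in DKO without DKO 4 and in TKO without control 1 and with total counts only. Scaling to total counts only moved the median of all genes to 0.07, 0.17, 0.11 and 0.12 in the 4 comparisons, and the member medians to 0.29, 0.02, -0.27 and 0.25. In TKO the median was -0.05 with voom.

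The replicate numbers repeat between groups. Of 12 same-numbered pairs of libraries, 5 had deviations that correlated above 0.1 (r from -0.174 to 0.37). Of 12 libraries, 6 correlated best with their own number, and no chance level was set for these values. The labels tie no number to an animal, litter or batch, so the numbers were not taken to pair the samples. Letters in the deposited column names also recur between groups. What they mean is not given, so no grouping was built from them. With the replicate number as a block, 0 members were called in each comparison and the medians were 0.36, -0.19, -0.43 and 0.16. A covariate for sex was not run, since all 12 libraries expressed Y-linked genes. Leaving out control 2 and TKO 3 together was chosen after seeing the data. With 4 libraries a group and swings shared by most synthesis genes, modest differences in these genes could not be detected.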
